A study of Mus musculus with 6 samples.

Results

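Among single cells of the mouse ventromedial hypothalamus, the wells described here were chosen by their counts of 3 transcription factor genes, Sox14, Nfib and Nfix, and by the absence of Tac1. Wells were kept with at least 500 genes with a count and under 25% of counts in mitochondrial genes, which left 530 of 576 wells. A kept well was a member where the summed counts of Sox14, Nfib and Nfix reached 2 and Tac1 had 0 counts. This gave 54 member wells, 10.2% of the kept wells (exact 95% binomial interval 7.75 to 13.1%, which covers counting error only). They were compared, within each mouse, with the 328 kept wells that held 0 counts of all 3 genes. These 4 genes chose the wells, so their values are a description and no test is given for them.

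The cells came from 3 female and 3 male mice at postnatal day 10, all of genotype Ai14f/+;Sf1-Cre. Ai14 is a fluorescent reporter that stays on once Cre has acted, and Sf1-Cre acts in cells of the Nr5a1 (SF-1) lineage, so sorted cells need not transcribe Nr5a1 at this age and the label can reach neighbours of the nucleus. Roughly dissected hypothalamus was dissociated with papain, and fluorescent cells were sorted into 96 wells per mouse. One plate held 1 mouse, so plate, library and mouse cannot be told apart. The kept wells of a mouse held 185654 to 783270 counts in all. Female 2 was the shallowest, with a median of 2097 counts per kept well against 5170 to 7980 in the other mice, and 1 of its wells was a member. Female 1 had 2 member wells, female 3 had 11, male 1 had 11, male 2 had 12 and male 3 had 17. The values of females 1 and 2 therefore rest on 1 or 2 cells, and the called genes are also given for the 4 mice with at least 5 member wells, of which female 3 is the only female.

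The VMH is a mostly glutamatergic nucleus that takes part in energy balance, glucose control and social behaviour, and Nr5a1 and Fezf1 are needed for its formation. Sox14 encodes a transcription factor of the SOX family that marks subsets of neurons in several parts of the brain. Nfib and Nfix encode nuclear factor I (NFI) proteins, which bind DNA as dimers and which, with Nfia, are switched on late in the birth order of many kinds of neuron. Tac1 encodes the precursor of substance P and marks other neurons of the nucleus.

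The mouse Sox14 gene, where the choice of wells begins, lies on the minus strand at GRCm38 chr9:99874106-99876170 (GENCODE vM21, protein-coding). Its RefSeq promoter window (GRCm38.p6, chr9:99876121-99876420, minus strand, 250 bases before to 50 after the start) is shown because Sox14 and the NFI genes were read together in these wells. Capitals mark 1 match to TTGGCA, an arm of the paired NFI recognition sequence, whose last base lies 133 bases before the start:
Sox14 promoter: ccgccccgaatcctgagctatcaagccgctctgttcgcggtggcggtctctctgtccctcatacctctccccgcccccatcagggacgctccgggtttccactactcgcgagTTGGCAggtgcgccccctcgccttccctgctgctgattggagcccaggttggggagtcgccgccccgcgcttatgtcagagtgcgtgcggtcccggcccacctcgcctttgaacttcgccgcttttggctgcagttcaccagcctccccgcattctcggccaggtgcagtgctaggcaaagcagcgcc
The search read TTGGCA on both strands, and 14.1% of all 32851 promoter windows of this length held it. The full NFI palindrome, which can overlap this arm, was in 0.0365% of windows. A match describes letters in the window and shows no binding.

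All 3 genes that define the wells were seldom detected in the same well. Of the 54 members, 7 held all 3 genes, 6 held Sox14 with Nfib, 6 held Sox14 with Nfix and 8 held Nfib with Nfix. Another 24 held Sox14 alone and 3 held Nfix alone. The label of neurons with Sox14, Nfib and Nfix thus describes the group as a whole, and at this depth 7 of its wells one by one. The group is called member wells here.

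Sox14 was by far the most widely detected of the 3. It had a count in 171 of the 530 kept wells (32.3%), against 41 for Nfix (7.74%) and 32 for Nfib (6.04%). In the summed member wells Sox14 stood at 273 CPM (counts-per-million, a gene's counts scaled to the total counts of the summed wells), Nfix at 122 and Nfib at 91.0. The Sox14 level in members was 445, 420 and 244 CPM in females 1 to 3 and 159, 380 and 294 CPM in males 1 to 3. Nfib was at 0, 0 and 263 CPM in the females and at 79.4, 66.1 and 51.5 CPM in the males. Nfix was at 178, 420 and 244 CPM in the females and at 148, 99.2 and 58.9 CPM in the males. Female 3 was thus highest for Nfib, and the members of females 1 and 2 held no Nfib count.

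Each pair of the 3 genes shared a similar number of wells, but the shares of wells differed between the pairs. Nfib and Nfix were together in 16 kept wells, Sox14 and Nfib in 17, and Sox14 and Nfix in 17. Nfix was in 5.02% of the kept wells without Nfib. Nfib was in 9.94% of wells with Sox14 and 4.18% of those without, and Nfix in 9.94% and 6.69%. Depth is shared by all genes of a well and was not held fixed in these shares.

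The limit of 2 counts divided wells that differ by 1 count. Exactly 2 counts were held by 23 members and exactly 3 by 13, and the other 18 held 4 to 7. Just outside the rule were 77 Tac1-free wells with a single count, which was Sox14 in 58, Nfix in 13 and Nfib in 6. Another 38 wells had at least 2 counts but also held Tac1, 6 of them with a single Tac1 count. Tac1 was in 41.3% of the wells with at least 2 counts of the 3 genes and in 37.2% of the comparison wells. The 46 wells left out for quality held 1 count of the 3 genes in all.

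**Figure D1:**
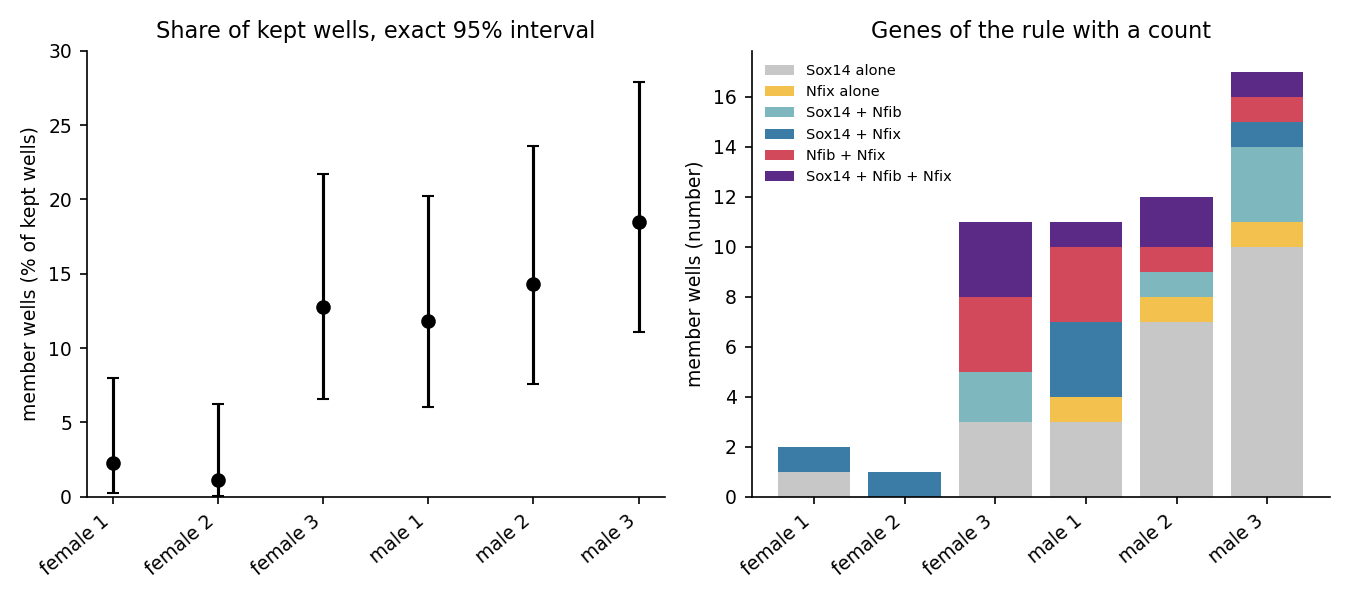
Left, member wells as a percentage of the kept wells of each mouse (points) with exact 95% binomial intervals (bars); right, the number of member wells of each mouse by which of Sox14, Nfib and Nfix had a count. Females 1 and 2 had 2 and 1 member wells, the other mice 11 to 17, and wells with all 3 genes were a minority in every mouse.

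The members were neurons by their markers. All 54 held at least 3 of the 11 listed neuron markers (median 8, lowest 4), and Tubb3, Stmn2 and Stmn3 were detected in each of them. The summed neuron list was at 9040 to 10900 CPM in members and 8570 to 10400 CPM in comparison wells over the 6 mice. A count of any of 10 glial genes was found in 5 members. The astrocyte list (10 of 14 genes with a count) summed to 267 to 839 CPM in members and 415 to 1220 CPM in comparison wells (14 of 14), with Aqp4, Gfap, Fgfr3 and Gjb6 at 0 counts in members. The oligodendrocyte list summed to 0 to 267 CPM against 54.5 to 221 CPM, with Olig1, Olig2, Pdgfra and Sox10 at 0 in members. The microglia list was at 0 to 37.5 CPM in members and at 7.39 to 38.8 CPM in comparison wells, and the endothelial and tanycyte lists each had 4 genes with a count in members. No pair of wells held identical counts. The plates share all 96 well names, which are positions and not cell barcodes.

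Arcuate neuron markers were rarer in members, with a count in 16 of 54 against 147 of 328 wells. The list of 11 (Pomc, Agrp, Npy and others of the adjoining arcuate nucleus) summed to 0 to 178 CPM in members, with 6 genes detected, and to 109 to 2140 CPM in comparison wells, with 11 detected. Agrp, Kiss1, Npy, Slc6a3 and Th had 0 counts in members. The arcuate markers thus moved with membership, and member against comparison tests were repeated on the 38 members and 181 comparison wells without any count of the list.

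Transmitter genes were those of glutamatergic neurons in most members. Slc17a6, the vesicular glutamate transporter of hypothalamic neurons, had a count in 47 of 54 members (87.0%) and 232 of 328 comparison wells (70.7%). Gad1, which makes GABA, was in 0 of 54 members and in 31 comparison wells (9.45%). Gad2, the other GABA synthesis gene, was in 7 of 54 members and 31 of 328 comparison wells (9.45%). Its share over all wells together was thus higher in members, while its mean shares over mice, in wells as deposited, were 9.0% and 9.75%. Females 1 and 2, with 2 and 1 member wells, had no Gad2 count in them. Gad2 was therefore neither clearly lower nor clearly higher in members. The GABA transporter gene Slc32a1 was in 0 members and 10 comparison wells. A floor of 3 wells in 54 is 5.56%, and it bears on wells with a count, not on cells that express the gene. In wells thinned to 2000 counts each, so that depth was the same, the mean share of wells with Gad1 was 0% in members and 7.28% ± 5.58 in comparison wells (SD, n = 6 mice; exact two-sided sign-flip p = 0.031, adjusted 0.125 over 12 genes). The mean share with Slc17a6 was then 45.6% ± 41.3 and 55.7% ± 10.8 (adjusted p = 0.525, exact sign-flip test), and the direction turned in wells as deposited, where the difference of mean shares was 2.63 points. None of the 12 shares passed the adjusted threshold of 0.05, and the smallest p that 6 mice allow is 0.031. Thinning left out 46 comparison wells, 34 of them of female 2, and no member.

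Markers of VMH identity were mixed. Nr5a1 itself had a count in 13 members (24.1%) and 89 comparison wells (27.1%), and the levels over all summed wells were 62.6 and 68.1 CPM. Fezf1, a zinc finger factor of the developing VMH, was in 31 members (57.4%) and 115 comparison wells (35.1%). Its member levels were 0, 0 and 319 CPM in the females and 170, 231 and 316 CPM in the males, against 140, 106 and 251 and then 158, 66.5 and 153 CPM in comparison wells. It was higher in the members of 4 of 6 mice and did not pass the test described next (log2 fold change 0.63, SE 0.206, adjusted p = 0.161, edgeR). Fezf1 passed in 3 of 22 alternatives, against comparison wells with 0 Tac1 counts (0.85, adjusted p = 0.0399), for members with a Sox14 count (0.79, adjusted p = 0.0418) and for those with Sox14 alone (0.97, adjusted p = 0.0429, edgeR). Nkx2-1 was in 4 members and 38 comparison wells. Esr1, the estrogen receptor that the study's title names, was in 0 members and 23 comparison wells (7.01%). In a fit without the filter on low counts, Esr1 did not pass (adjusted p = 0.205, edgeR), so a lack of it in members was not shown.

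Genes were compared between member and comparison wells on counts summed per mouse, with mouse as a block (edgeR quasi-likelihood test, Benjamini-Hochberg adjustment over the 2612 genes left by the filter on low counts). A gene was called where its adjusted p was under 0.05. Of these genes 20 were called (0.766%), 4 higher in members (0.153%) and 16 lower (0.613%). The 4 higher genes were Calb1, Pcp4, Pcdh8 and Cox6a2. The lower genes were led by Sst, Nrgn and Scg2, and included the VMH peptide gene Adcyap1 and the synaptic organiser gene Cbln1. The median log2 fold change over all tested genes was -0.03.

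The mitochondrial share moved with membership, and depth did so less clearly. Within mice the member median minus the comparison median was -1116 counts per well (mean over 6 mice, lower in 4, exact sign-flip p = 0.125) and -194.8 detected genes (lower in 5, exact sign-flip p = 0.1562). Over all wells together the medians went the other way, at 5928 counts and 2630 genes in members and 5812 and 2516 in comparison wells. The median share of mitochondrial counts was 4.22% in members and 5.17% in comparison wells, and it was lower in the members of 6 of 6 mice. The mitochondrial genes mt-Nd1 and mt-Nd2, both at -0.34, did not pass in the 6 mice (adjusted p = 0.4 and 0.291, edgeR), but each was called lower in 7 of 22 alternatives. In wells thinned to equal depth Sst, Nrgn, Scg2 and Pcp4 were called. The part of the mitochondrial share in the other calls was not tested.

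Calb1, the calcium-binding protein calbindin, was higher in the members of 6 of 6 mice. Its member levels were 891, 420 and 788 CPM in the females and 942, 678 and 1180 CPM in the males, and its comparison levels were 609, 354 and 573 and then 695, 303 and 870 CPM. The ranges overlapped, and the increase lay within each mouse (log2 fold change 0.49, SE 0.126, adjusted p = 0.0148, edgeR). The call was lost when female 3, male 1, male 2 or male 3 was left out (adjusted p 0.0511 to 0.221, edgeR).

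Pcp4, a small regulator of calmodulin also known as PEP-19, was found in all 54 members and in 84.5% of comparison wells. Members held 980, 839 and 1160 CPM in the females and 1180, 1420 and 986 CPM in the males, and comparison wells held 574, 968 and 643 and then 829, 702 and 548 CPM. The single member well of female 2 was the exception to a rise that was seen in the other 5 mice (log2 fold change 0.71, SE 0.12, adjusted p = 2.25e-06, edgeR).

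Pcdh8, a protocadherin of cell contacts, had a count in 36 members (66.7%) and in 26.8% of comparison wells. Its member levels were 267, 0 and 150 CPM in the females and 159, 132 and 184 CPM in the males, against 116, 12.4 and 107 and then 78.9, 48 and 56.4 CPM. The 5 mice other than female 2 all rose (log2 fold change 1.15, SE 0.261, adjusted p = 0.00268, edgeR), and the call was lost without male 3 (0.94, adjusted p = 0.234, edgeR). Cox6a2, a subunit of cytochrome c oxidase, rested on fewer counts, 50 in members, and on 4 of 6 mice (log2 fold change 1.08, SE 0.275, adjusted p = 0.0126, edgeR). Female 1 held 713 CPM of it against 50.4 in comparison wells, and the other members held 0 to 261 CPM against 37.5 to 124 CPM. Without female 1 or male 1 Cox6a2 was not called (log2 fold change 0.52 to 0.8, adjusted p 0.256 to 0.908, edgeR), and in the 4 mice with at least 5 members it was at 0.85 (adjusted p = 0.351, edgeR). Cox6a2 overlaps Itgad on the other strand, Pcp4 overlaps Igsf5, Lrrtm1 lies within Ctnna2, Nnat overlaps Blcap and Pdia3 overlaps Catsper2, and whether counting used strand is not stated, so reads of such pairs may be shared.

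The neuropeptide gene Sst, somatostatin, gave the most marked fall. Members held 0, 0 and 0 CPM in the females and 22.7, 149 and 73.6 CPM in the males, while comparison wells held 1070, 2290 and 1370 and then 597, 2850 and 886 CPM. The groups did not overlap. In counts this was 21 in 6 of 54 members against 2602 in 73 of 328 comparison wells (log2 fold change -4.42, SE 0.235, adjusted p = 1.94e-74, edgeR). In wells without arcuate markers the fold change was -2.87 (adjusted p = 3.34e-21, edgeR). Its share of wells, thinned to 2000 counts, was 5.40% ± 7.21 in members and 18.7% ± 4.41 in comparison wells (SD, n = 6 mice; exact sign-flip p = 0.031, adjusted 0.125).

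Nrgn, neurogranin, which binds calmodulin in dendrites, stood at 445, 0 and 694 CPM in the members of the females and 420, 331 and 559 CPM in those of the males. Comparison wells held 1440, 180 and 1350 and then 1150, 1180 and 1270 CPM, so every mouse was lower in its members, and the ranges met only through the low comparison value of female 2 (log2 fold change -1.36, SE 0.142, adjusted p = 1.16e-18, edgeR). Scg2, secretogranin of dense-core vesicles, was at 713, 1260 and 563 CPM and 306, 380 and 677 CPM in members, and at 1200, 1350 and 957 and then 887, 987 and 1500 CPM in comparison wells. It was lower in 6 of 6 members' sums, by a small step in female 2 (log2 fold change -1.21, SE 0.143, adjusted p = 3.17e-14, edgeR).

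The promoter windows of Sst and Scg2 are shown because these genes fell and hold the letters AACAAT, a core read by SOX proteins, on the strand opposite to the gene, which reads ATTGTT here in capitals. Of 20 called genes 15 had a promoter entry, with 16 windows, and the motif was in 2 of the 16 windows (12.5%) against 10.7% of all windows. TTGGCA was in 0 of the 16. The Sst window is chr16:23890795-23891094 and the Scg2 window chr1:79439977-79440276, both on the minus strand (RefSeq, GRCm38.p6), and their matches end 224 and 124 bases before the start:
Sst promoter: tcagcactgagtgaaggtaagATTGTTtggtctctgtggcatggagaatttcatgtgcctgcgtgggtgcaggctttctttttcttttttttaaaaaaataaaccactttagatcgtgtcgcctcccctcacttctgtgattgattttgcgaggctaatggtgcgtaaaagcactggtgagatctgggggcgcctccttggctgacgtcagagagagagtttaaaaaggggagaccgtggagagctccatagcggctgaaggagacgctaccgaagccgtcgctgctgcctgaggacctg
Scg2 promoter: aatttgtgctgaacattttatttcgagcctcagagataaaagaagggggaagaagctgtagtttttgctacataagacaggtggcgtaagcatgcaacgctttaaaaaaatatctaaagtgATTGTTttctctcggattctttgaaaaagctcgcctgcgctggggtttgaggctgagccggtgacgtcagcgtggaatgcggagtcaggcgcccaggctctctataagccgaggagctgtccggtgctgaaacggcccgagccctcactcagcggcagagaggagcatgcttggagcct
The share of called genes' windows with the SOX core lay close to that of all windows, and no reading of either factor's binding is made from it.

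Adcyap1, the gene of the peptide PACAP and a marker of the adult VMH, was at 178, 0 and 56.3 CPM in the members of the females and 56.7, 49.6 and 51.5 CPM in those of the males. Comparison wells held 175, 161 and 150 and then 163, 111 and 149 CPM. The 2 member wells of female 1 were level with their comparison wells and the other 5 mice were lower (log2 fold change -1.4, SE 0.309, adjusted p = 0.00172, edgeR). Cbln1, a cerebellin that organises synapses, was at 89.1, 0 and 56.3 CPM and 125, 248 and 140 CPM in members, and at 147, 267 and 294 and then 259, 318 and 318 CPM in comparison wells, lower in all 6 mice (log2 fold change -1.12, SE 0.22, adjusted p = 0.000208, edgeR). Adcyap1 lost its call without male 1 or male 3 (adjusted p 0.0529 to 0.0809, edgeR), and Cbln1 kept it without each mouse in turn.

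The other lower genes changed by 0.46 to 1.84 on the log2 scale. Bcl11a, a zinc finger repressor, was lower by 1.84 (SE 0.404, adjusted p = 0.00167, edgeR). It had 193 of the 2012413 counts in comparison wells and 10 of the 351483 in members. Pcdh17 and Lrrtm1, 2 adhesion genes of the synapse, were lower in 6 of 6 mice, with log2 fold changes of -1.2 and -1.13. So were Ctxn1 (-0.85), the chaperone gene Pdia3 (-0.88) and Nnat, neuronatin (-0.53). Cpne6, a calcium-dependent membrane binder, was lower in 5 mice (-1.21), as were Rprm, a cell-cycle regulator induced by p53 (-1.1), and the surface glycoprotein gene Thy1 (-0.84). Resp18 (-0.46) and the secreted peroxidase gene Gpx3 (-0.61) were lower in 4 mice. The adjusted p-values of these 11 genes ran from 0.00026 to 0.0211 (edgeR). Of the 11, Cpne6 kept its call when each mouse in turn was left out. Nnat and Ctxn1 lost theirs without male 1, and Pdia3 without each male in turn. Lrrtm1, Rprm and Pcdh17 lost theirs without female 3 or male 1, Bcl11a without male 1 or male 3, and Thy1 without male 1 or male 2. Gpx3 lost its call without female 3 or any male, and Resp18 without female 1 or any male (adjusted p 0.0519 to 0.688 over these fits, edgeR).

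**Figure D2:**
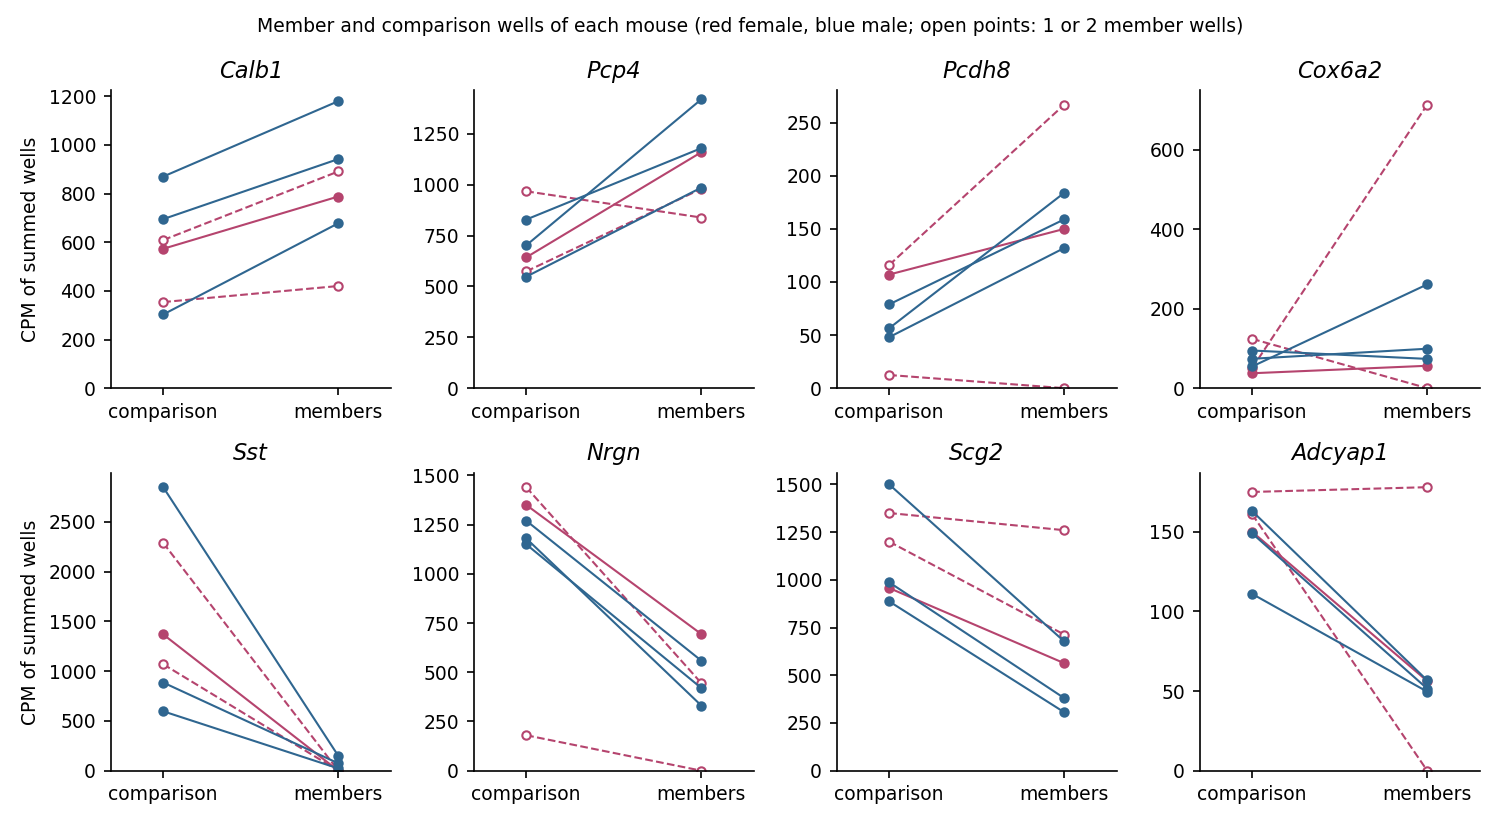
CPM of the summed wells of each mouse (vertical axes, linear, from 0) for 8 called genes, with a line joining the comparison and the member wells of 1 mouse; females are red, males blue, and open points with broken lines are females 1 and 2, whose members are 2 wells and 1. Calb1 rose in 6 of 6 mice and Sst, Nrgn and Scg2 fell in 6 of 6, while Cox6a2 was carried mainly by female 1 and male 1.

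How firmly these calls stood differed between genes. Sst and Scg2 were called under all 22 alternatives run on them and Nrgn under 21 of 22. Pcp4 was called in 18 of 22, Cpne6 in 17 of 21, Ctxn1 in 17 of 22, Cbln1 and Nnat in 16 of 22 each, Adcyap1 in 14 of 21 and Calb1 in 8 of 22. DESeq2 called 3 of the 20 genes, Sst, Nrgn and Scg2, and without the mouse block Sst and Scg2 were called. In the 4 mice with at least 5 members 40 genes were called, which included 18 of the 20 but not Rprm (adjusted p = 0.121, edgeR) and Cox6a2. In wells without arcuate markers 22 genes were called, 16 of them among the 20. Against comparison wells with 0 Tac1 counts 16 were called, 11 of them shared, and Calb1, Pcdh8, Adcyap1, Cbln1, Bcl11a, Nnat, Thy1, Resp18 and Cox6a2 were not.

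**Figure D3:**
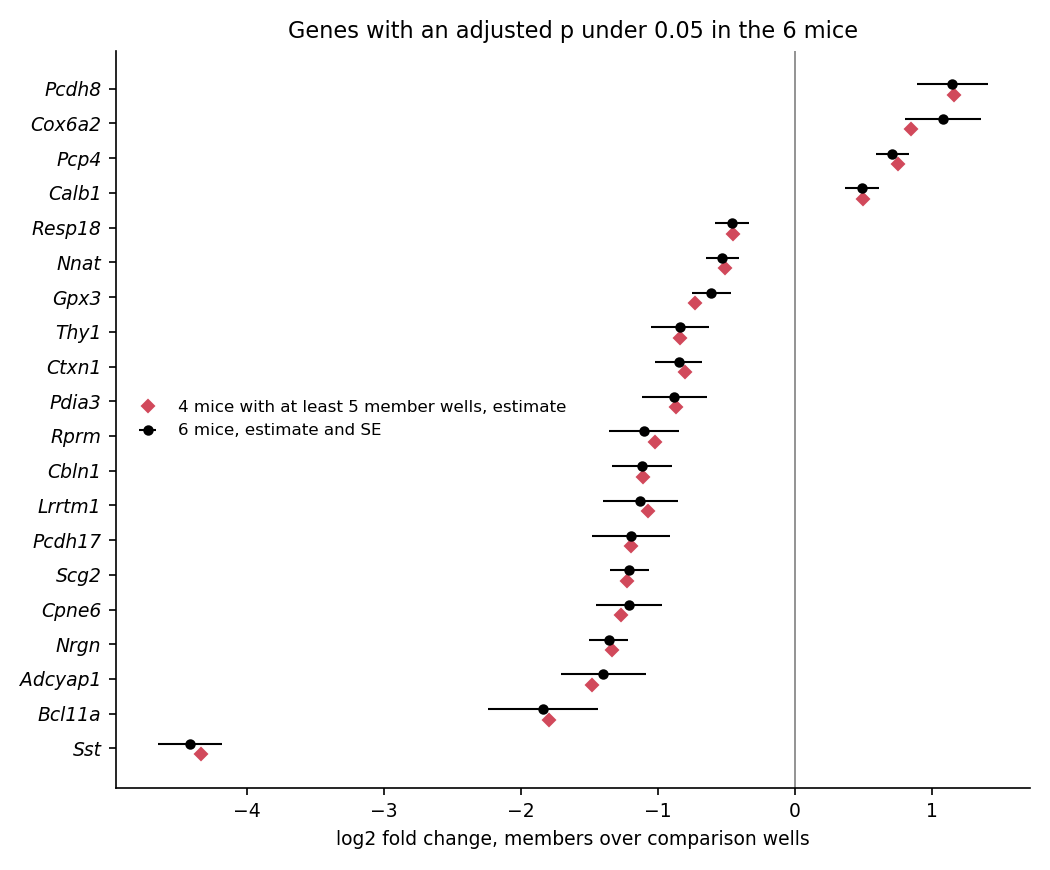
Log2 fold change of members over comparison wells (horizontal axis) for the 20 called genes, as the estimate and approximate standard error from the 6 mice (black circles, bars) and the estimate from the 4 mice with at least 5 member wells (red diamonds). The estimates lay on the same side of 0 for all 20 genes, 4 above and 16 below.

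Set beside 0.613% of all tested genes called lower and 0.153% called higher, the calls in gene lists were as follows. Of the VMH identity list 7 of 18 genes were tested and 2 fell (Adcyap1, Cbln1), with a median log2 fold change of -0.52 against -0.03 over all tested genes. Of the markers of VMH neuron types 6 of 26 were tested and 3 fell (Sst, Rprm and Bcl11a, median -0.95). Of 15 tested neuropeptide and granin genes 3 fell (Sst, Adcyap1, Scg2) and none rose, with a median of -0.20. Among 9 tested cadherins Pcdh8 rose and Pcdh17 fell, and among 9 calcium-binding protein genes Calb1 rose. Nnat was the only call among 14 genes of neuronal immaturity and among 12 imprinted genes, and Thy1 the only one among 19 genes of mature neurons. The median was 0.01 over the tested immaturity genes and -0.13 over the tested maturity genes. These lists were drawn up with earlier results of these data known, and their counts are a description.

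Several genes close to the choice of wells were too rare for the filter, among them every gene of the NFI and SOX list and of the GABAergic list. Nfia, the third NFI gene of the late neuronal programme, had a count in 13 of 54 members (24.1%) and 13 of 328 comparison wells (3.96%). Its member levels were 0, 420 and 93.8 CPM in the females and 56.7, 33.1 and 51.5 CPM in the males, against 23.3, 18.6 and 0 and then 5.64, 0 and 2.25 CPM. The 420 CPM of female 2 was 1 count in 1 well. Tcf4, a basic helix-loop-helix factor, was in 24 members (46 counts) and 30 comparison wells (35 counts). Its member levels were 89.1, 0 and 244 CPM in the females and 125, 66.1 and 125 CPM in the males, against 11.6, 62.1 and 14.4 and then 7.51, 25.9 and 13.5 CPM, higher in 5 of 6 mice. In a fit without the filter, over 14833 genes with a median log2 fold change of -0.33, the values were 3.19 for Nfia (SE 0.519, adjusted p = 1.38e-06) and 2.73 for Tcf4 (SE 0.348, adjusted p = 1.24e-11, edgeR). That fit called 78 genes (0.526%), 9 higher and 69 lower, and 61 of the 78 had under 50 counts in all members.

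Sox2, a SOX factor of progenitors and some neurons, was in 25 members (46.3%) and 75 comparison wells (22.9%), at 105 and 48.7 CPM over all summed wells. It did not pass the filter with 6 mice, nor the test in the fit without the filter (0.89, adjusted p = 0.304, edgeR). It was called higher in the 4 mice with at least 5 members (1.24, adjusted p = 0.0299), without female 1 (1.2, adjusted p = 0.0188) and without female 2 (1.16, adjusted p = 0.0377, edgeR), 3 of the 7 alternatives that fitted it. Sox4 (22.8 and 22.9 CPM) and Sox11 (14.2 and 16.4 CPM) were nearly level. Of 7 listed early-born neuron factors none was called in the fit without the filter. Zfhx3 had 5 counts in members and 70 in comparison wells (-1.57), and Zfhx2 had 4 and 53 (-1.41). Zfhx4 was nearly level (-0.07, 2 and 12 counts) and Pou2f2 was at 0.26 (5 and 20 counts). Onecut1, Onecut2 and Onecut3 had 0 counts in members and 4, 3 and 1 in comparison wells, too few to show a difference.

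The same fit placed several peptide and arcuate genes lower in members. Cartpt, a satiety peptide precursor, had 3 counts in 1 member and 207 counts in 49 comparison wells (-3.82, adjusted p = 5.87e-09, edgeR). Pomc had 5 counts in members against 1381, Gal 2 against 197, and Penk 8 against 191. Npy had 0 counts in members and 221 in comparison wells. Peptide genes of other hypothalamic neurons were also at 0 in members, Pmch (melanin-concentrating hormone) against 1198 counts, Npvf against 164, Cck against 102 and Qrfp against 71. How far such neurons among the comparison wells set the differences was not tested beyond the arcuate list. A floor of 3 counts over all members lay 69.7-fold under the pooled comparison level of Pmch and 12.9-fold under that of Npy. For Gad1 it lay 4.95-fold under and for Npy2r 3.03-fold. Pooled counts can sit in few wells, and all 221 Npy counts lay in 10 of 328 comparison wells (3.05%). These ratios therefore set no lower bound on a difference between cells. Tcf7l2, a transcription factor listed among markers of VMH neuron types, was at 5.69 CPM in members and 37.3 CPM in comparison wells.

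Members with and without an NFI count held different shares of some other genes. The 30 wells with an Nfib or Nfix count and the 24 with Sox14 alone were separated after the values had been seen, so their shares are given without a test. Tcf4 was in 21 of the 30 (70.0%) and 3 of the 24 (12.5%), against 9.15% of comparison wells. Nfia was in 12 of the 30 and 1 of the 24 (4.17%), against 3.96%. The wells with an NFI count thus held 43 of the 46 Tcf4 counts and 19 of the 20 Nfia counts of all members. Adcyap1 went the other way, at 0 of 30 (exact 95% upper limit 11.6% of wells with a count) and 11 of 24 (45.8%), against 41.8% of comparison wells.

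Other genes lined up with this division. In the wells with an NFI count, Cbln1 was in 5 of 30 against 17 of 24, Bdnf (a neurotrophin) in 4 against 15, Nefm (a neurofilament) in 3 against 11, Nptx2 (a pentraxin of synapses) in 1 against 7 and Rprm in 5 against 12. Slc17a8, a second vesicular glutamate transporter, was in 7 of 30 against 1 of 24, and Vgll2, a VMH transcription cofactor, in 7 against 2. Pdyn, the dynorphin precursor, reached 494 CPM over the wells with an NFI count and 191 CPM over those with Sox14 alone. Pcp4 was in every well of both kinds, Calb1 in 26 of 30 and 20 of 24, and Slc17a6 in 27 and 20. Sst was in 3 wells of each kind.

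The kinds also differed in depth. The wells with an NFI count had a median total of 5090 counts against 7010 in the wells with Sox14 alone. Thinned to 2000 counts per well, Tcf4 was in 15 of 30 against 0 of 24, Adcyap1 in 0 against 7, Cbln1 in 3 against 9 and Bdnf in 1 against 6. In percentage points the contrast was narrower at this depth for each of these genes. The same held for Nfia (4 against 1), Slc17a8 (4 against 0), Gad2 (4 against 0) and Vgll2 (3 against 1). It also held for Nptx2 (1 against 3), Nefm (1 against 3) and Rprm (2 against 6). Ratios of the shares need not narrow with it, since Tcf4 and Slc17a8 were left in 0 wells with Sox14 alone. Thinning lowers the share of every gene, and the part of depth in the contrast was not tested. Wells with an NFI count and Tcf4 came from 5 of 6 mice, and wells with Sox14 alone and Adcyap1 from 5. Fitted against the same comparison wells, the wells with an NFI count gave 37 called genes of 1888 tested and those with Sox14 alone 13 of 3081. Adcyap1 was at -7.78 in the first (a fit to 0 member counts, which gives no bound on the fold) and -0.51 in the second (adjusted p = 0.988, edgeR), and Cbln1 at -2.55 and -0.53 (adjusted p = 0.907, edgeR). Sst, Nrgn, Scg2 and Pcp4 passed in both fits. The fits share their comparison wells, and the difference between them was not tested.

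**Figure D4:**
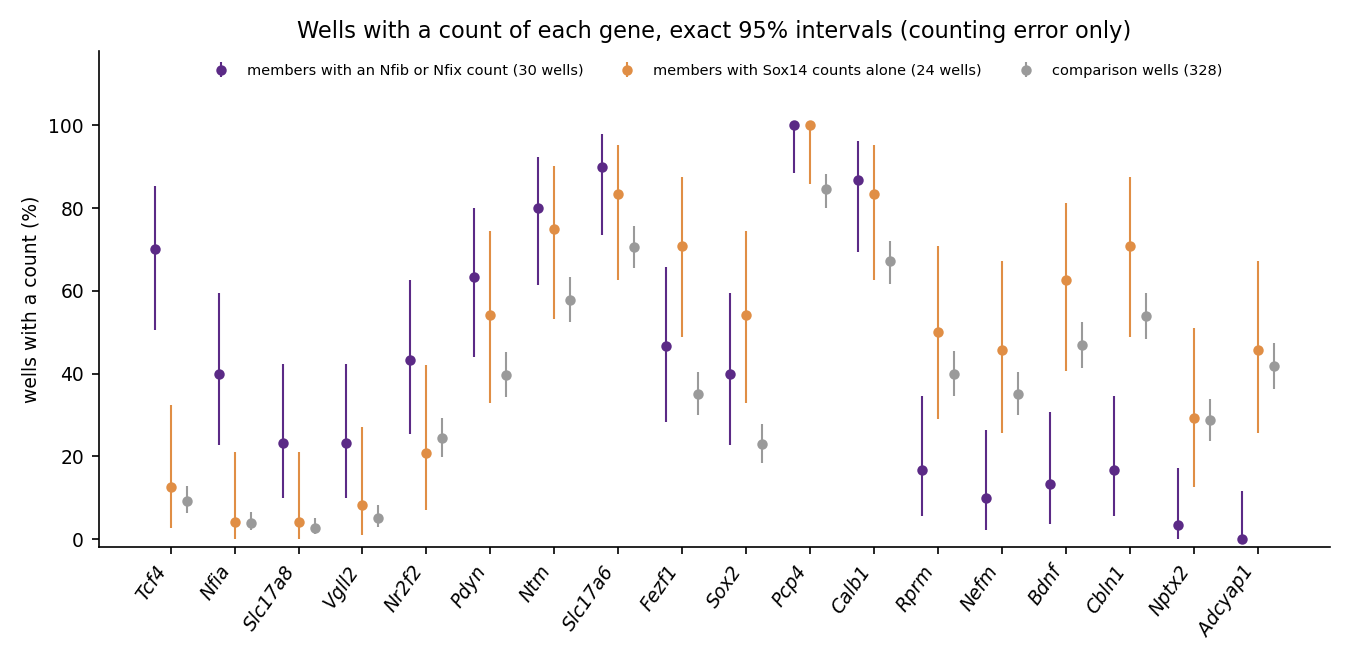
Percentage of wells with a count (vertical axis) of 18 genes in members with an Nfib or Nfix count (purple, 30 wells), members with Sox14 counts alone (orange, 24) and comparison wells (grey, 328), with exact 95% binomial intervals that cover counting error only. Tcf4 and Nfia lay high in the purple wells and Cbln1, Bdnf and Adcyap1 low, while Pcp4 was in every member well.

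The 38 wells with at least 2 counts of the 3 genes and a Tac1 count, which the rule leaves out, gave levels between the other groups for some genes. Sst was at 169 CPM over them, against 59.7 CPM over the members and 1290 CPM over the comparison wells. Pcp4 was at 868 CPM, Scg2 at 825 CPM and Nrgn at 1170 CPM, the last near the 1180 CPM of the comparison wells. Nfia was in 1 of the 38. These levels are descriptions, with no test.

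The share of kept wells that were members was 2.27, 1.15 and 12.8% in females 1 to 3 and 11.8, 14.3 and 18.5% in males 1 to 3. The sexes overlapped, since female 3 lay above male 1 (5.40% ± 6.42 and 14.9% ± 3.36, SD, n = 3 mice each, a difference of 9.46 points, two-sided exact permutation p = 0.2, smallest possible 0.1). When the rule was applied to wells thinned to 2000 counts, 17 members were left and the difference was 0.0146 points. Depth, which was lowest in female 2, moves with the share, and its part beyond the thinned value was not tested. Without female 3 the difference was 13.2 points and the sexes did not overlap, and they did not overlap without male 1 either (5.40% and 16.4%).

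Within the members, 1 of 1144 tested genes differed between the sexes (0.0874%), with 3 mice a sex and edgeR as above. It was Ndn, necdin, an imprinted gene expressed from the father's copy and active in neurons. Ndn was at 0, 420 and 488 CPM in the members of the females and at 4110, 3780 and 3890 CPM in those of the males, and these values did not overlap. It had a count in 4 of 14 female and in 40 of 40 male member wells (3.37 on the log2 scale for males over females, SE 0.416, adjusted p = 3.14e-05 by edgeR) and was called in all 15 alternatives, the 4 mice with at least 5 member wells among them (2.98). In comparison wells Ndn was at 943, 1550 and 1340 CPM in the females and 3490, 2660 and 3540 CPM in the males, also without overlap. Whether the Ndn difference, or the interaction given next, follows sex or differences between mice, litters or plates cannot be told from the labels. The next genes by p, Rpl39, Rpl32, Basp1, Eif4a2 and Inpp5f, had adjusted p-values of 0.0677 to 0.994 (edgeR), and Rpl39 and Rpl32 have processed copies in the genome that can share reads.

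The male minus female difference was higher in members than in comparison wells for 2 of 3502 genes (0.0571%), Ndn and Rprm, by the interaction term. For Ndn it was larger in the same direction, and for Rprm it turned, since comparison wells had the higher mean in females. For Ndn the term was 2.14 on the log2 scale (SE 0.43, adjusted p = 0.00217, edgeR), and it lost its call without female 1, male 1, male 2 or male 3 (1.93 to 2.36, adjusted p 0.135 to 0.41, edgeR). Rprm had 0 counts in the 14 female member wells and 36 counts in 17 of the 40 male ones. Its male members held 34, 182 and 162 CPM, and comparison wells held 109, 447 and 337 CPM in females and 165, 85 and 239 CPM in males. The fitted interaction of 8.34 (SE 1.86, adjusted p = 0.0125, edgeR) depends on how 0 counts are treated and is no estimate of size. The 127 CPM of Rprm in the pooled male members was 2.82-fold a floor of 3 counts over the pooled female member wells, 44.8 CPM. Its call was lost without female 1, female 3, male 2 or male 3 (adjusted p 0.0813 to 0.576, edgeR). Wells with Sox14 alone made up 4 of the 14 female and 20 of the 40 male members, and Rprm was found in 12 of these 24 wells against 5 of the other 30. That the make-up of the members moved with sex stands beside this result, and its part in it was not tested.

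**Figure D5:**
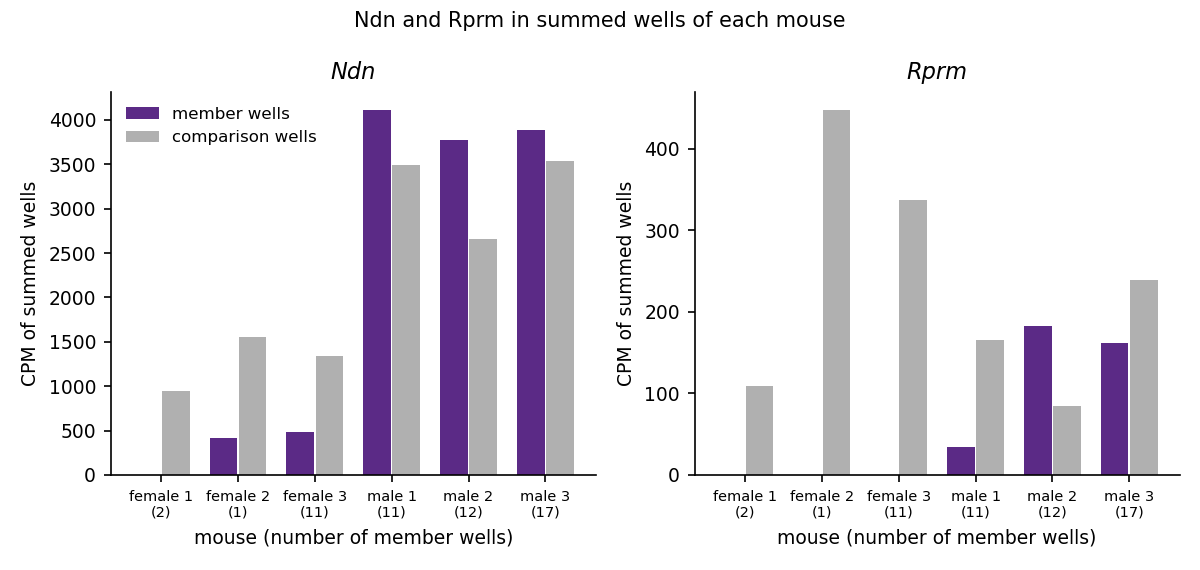
CPM (vertical axes, linear, from 0) of Ndn and Rprm in the summed member wells (purple) and comparison wells (grey) of each mouse, with the number of member wells in parentheses. Ndn was at 3780 to 4110 CPM in male and 0 to 488 CPM in female members, and Rprm had no count in the members of any female.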

How the data were processed

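Per the labels' protocols, cells were dissociated with papain and libraries were built with the BD Precise whole transcriptome single-cell kit. The authors deposited whole-number counts of each gene in each well, from HTSeq and the mm10 build per the submitters' processing notes. The aligner, tool versions, strand setting and whether counts are molecules or reads were not available to this work, and duplicate reads may remain. The kept wells of a mouse held 185654 to 783270 counts.

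From these counts, wells were filtered, classed by the rule and summed per mouse and class. The 12 sums were tested with edgeR 4.0.16 (R 4.3.3; TMM, filterByExpr, quasi-likelihood test, mouse as a block), with Benjamini-Hochberg adjustment over all tested genes and a threshold of 0.05. Males were compared with females over the 6 member sums without a block, and the interaction of sex and class over the 12 sums. The 4 genes of the rule were left out of the tests. The SE given with an edgeR log2 fold change is its absolute value divided by the square root of the test's F value, an approximation. Shares of wells were compared in wells thinned to 2000 counts, with exact permutation tests over mice (scipy 1.17.1). Permutation p-values measure the spread between mice. The edgeR p-values rest on a spread between sums that is shared over genes. Very small ones therefore do not measure how much 1 gene varied between mice. Exact binomial intervals and floors (3 counts) cover counting error only. No doublet caller was run, and how doublets were treated before deposit is not stated.

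Genes were named where the adjusted p was under 0.05, the mean was at least 20 CPM in either class and all 6 mice moved in 1 direction, up to 12 per direction (Calb1, Sst, Nrgn, Scg2, Pcdh17, Lrrtm1, Cbln1, Pdia3, Ctxn1, Nnat). Where under 3 met this, the direction's 5 lowest p-values gave the names (Pcp4, Pcdh8, Cox6a2, Ntm), and genes of the lists that passed were added (Adcyap1, Rprm, Thy1, Bcl11a). Cpne6, Gpx3 and Resp18 passed but did not move 1 way in all 6 mice, and were chosen after their values were seen, as were Tcf4, Nptx2 and the division of members by NFI counts. Ntm did not pass (log2 fold change 0.58, adjusted p = 0.122, edgeR).

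The tests were run on simulated counts with known changes. For members against comparison wells (2679 genes) they recovered 79.4% of 2-fold and 100% of 4-fold changes, for sex within members (1134 genes) 37.3% and 94.5%, and for the interaction (3378 genes) 6.56% and 52.4%. Recovery is over changed genes left by the filter, and 2, 3 and 3 unchanged genes were called. The counts were drawn with 1 dispersion for all genes of a comparison (0.0046, 0.0447 and 0.00706). Differences in mean between mice and in spread between genes were not simulated, so recovery in the real data may be lower. The members, gene lists and tests were chosen with earlier results of these data known. Alternatives were RLE factors, DESeq2 1.42.0, no filter, other limits for wells and members, thinning, a comparison without Tac1, leaving out each mouse and the block. Those with at least 5 member wells per mouse, without arcuate markers, and by kind of member were added after seeing the data. Promoters and their positions are from RefSeq (GRCm38.p6) and gene positions from GENCODE.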

Additional observations from a re-analysis of the deposited data

Results flagged for a closer look

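In 5 of the named genes 1 mouse lay far from the others in the log2 ratio of member CPM + 10 to comparison CPM + 10. In 4 of them it was female 2, whose only member well held 0 counts of the gene. The ratio in female 2 was -4.1 for Adcyap1 (other mice -1.38 to 0.02), -4.25 for Nrgn (-1.8 to -0.95), -4.54 for Pcdh17 (-1.97 to -0.48) and -5.37 for Ctxn1 (-1.48 to -0.33). For Calb1 it was male 2, at 1.14 against 0.24 to 0.54. Of 20 genes looked at, chance sets such a mouse apart in about 1 in 20. Without female 2, Nrgn, Adcyap1, Pcdh17 and Ctxn1 were still called by edgeR, while Calb1 lost its call without male 2.

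The member effect differed between the sexes, by the interaction term, for Ndn (2.14) and Rprm (8.34 on the log2 scale, with 0 counts in female members).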

How the results depend on the processing

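Counts of called genes moved with the setting. The 20 genes of members against comparison wells became 3 with DESeq2, 78 without the filter and 2 with no replicate block. In wells thinned to 2000 counts 4 were called among the 1055 genes that the filter left. There were 40 in mice with at least 5 members, 37 for members with an NFI count and 13 for Sox14 alone. Leaving out 1 mouse gave 10 to 46 (lowest without male 1, highest without female 2). The single gene of sex in members became 3 without the filter, 6 in mice with at least 5 members and 1 to 3 leaving out 1 mouse. The 2 interaction genes became 1 with DESeq2, without the filter, at a limit of 3 counts and thinned, 0 with no replicate block, and 0 to 2 leaving out 1 mouse. The titles' replicate numbers do not say that mice are paired, and with them as a replicate block for sex 1 gene, Ndn, was called.

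Directions turned in values of which only Calb1 and Pcp4 had passed. With 0 Sox14 counts in members (4 mice) Calb1 was at -0.33, Pcp4 at -0.04 and Fezf1 at -0.75. Cdh4 was at -0.12 without the filter, -0.05 with Sox14, -0.08 with an NFI count and -0.07 to 0.2 leaving out 1 mouse. With Sox14 alone Bdnf was at 0.11, Pdyn at -0.35 and Lypd1 at 0.32. Slc17a6 was at -0.14 without the filter, -0.08 with at least 2 of the 3 genes, -0.04 with 0 Sox14 counts, -0.16 without arcuate markers and -0.03 with an NFI count. Basp1 by sex ran from -1.86 to 0.86 leaving out 1 mouse. Share differences in points were, for Slc17a6, 2.63 as deposited, 12.8 thinned to 4000 counts and 9.16 in mice with at least 5 members. For Gad2 they were -0.751 as deposited, -1.48 thinned to 4000, -0.501 without Tac1 and -0.347 to 3.02 leaving out 1 mouse. For Pdyn it was -2.25 thinned to 4000, for Fezf1 -2.27 to 11.5 leaving out 1 mouse, and for Bcl11b 0.786 in mice with at least 5 members. The causes were not tested. Of 1098 single values under alternatives 829 kept direction and side of the threshold and 27 turned. Female 2 had no member at a limit of 3 counts or with Sox14 alone, and females 1 and 2 none without Sox14. With 1 or 2 member wells in these mice, depth limits what their values can show.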
